A study of Zea mays and Oryza sativa with 119 samples.

Results

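Section 3 of the third rice leaf was compared with section 2, its neighbour. The comparison rests on 8 libraries of the 119 in the series, 4 of section 3 and 4 of section 2. Of the 55986 genes in the rice table, the 17019 with a mean of at least 1 FPKM over these 8 libraries were tested. FPKM scales the fragments of a gene by its transcript length and by how many fragments the library mapped.

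The series set the leaf of maize, a C4 grass, beside the leaf of rice, a C3 grass, to study how C4 photosynthesis is established. Both groups of libraries here came from the third leaf of 14-day-old seedlings of the cultivar Nipponbare, each leaf divided into 11 sections of 2 cm, with no treatment or mutation in either group. A replicate was a pool of about 15 plants, so an FPKM value averages over all cells of a section and over many leaves. The labels do not say whether section 1 lies at the base or at the tip.

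A grass leaf grows from its base, and cells along the blade form a record of development from division through expansion to full photosynthesis. Young cells build and loosen primary walls, lay down the cuticle and assemble chloroplasts. Mature mesophyll cells fix carbon in the Calvin-Benson cycle, recover the product of Rubisco's oxygenase reaction through photorespiration, and turn the fixed carbon into sucrose and starch.

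Replicate 1 stood apart. Across the tested genes, its section 2 library had a higher Pearson r with the mean of section 3 (0.928) than with the mean of the other section 2 libraries (0.912). Its section 3 library likewise had a higher r with section 4 (0.934) than with section 3 (0.917). In the other 3 replicates both libraries had the highest r with their own section. Calls that depended on a replicate are given without it. The summed FPKM of a library was 583246 to 643547 in section 3 and 549340 to 580521 in section 2 (two-sided exact permutation test, p = 0.0286, the smallest that 4 against 4 libraries can give). The share of tested genes listed at 0 was 4.13 to 5.62% in section 3 and 3.62 to 4.40% in section 2 (exact permutation test, p = 0.143). Read totals are not in an FPKM table, so the depth of the libraries is unknown.

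More genes fell than rose between these neighbouring pieces of leaf. On log2(FPKM + 1), 182 genes rose in section 3 and 471 fell, against section 2, which is 3.84% of the tested genes (1.07% rose and 2.77% fell). A call needed an adjusted p under 0.05 in limma, with Benjamini-Hochberg adjustment over all tested genes, and a log2 change of at least 1. The median log2 change of all tested genes was -0.04. Values of section 3 and section 2 did not overlap in 1691 genes (9.94%), with section 3 above section 2 in 714 (4.2%) and below it in 977 (5.74%). An adjusted p under 0.05 at any size of change was reached by 855 genes (5.02%, with 1.74% higher and 3.28% lower in section 3). At an unadjusted p under 0.05, 1091 genes (6.41%) were higher in section 3 and 1491 (8.76%) were lower. Without replicate 1, 184 genes rose and 459 fell. Leaving out another replicate lowered the counts more, to 128 up and 304 down without replicate 2, 110 up and 270 down without replicate 3, and 125 up and 288 down without replicate 4. When only the 8 libraries were fitted, 23 rose and 85 fell. The spread was otherwise estimated over all 44 rice libraries.

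**Figure D1:**
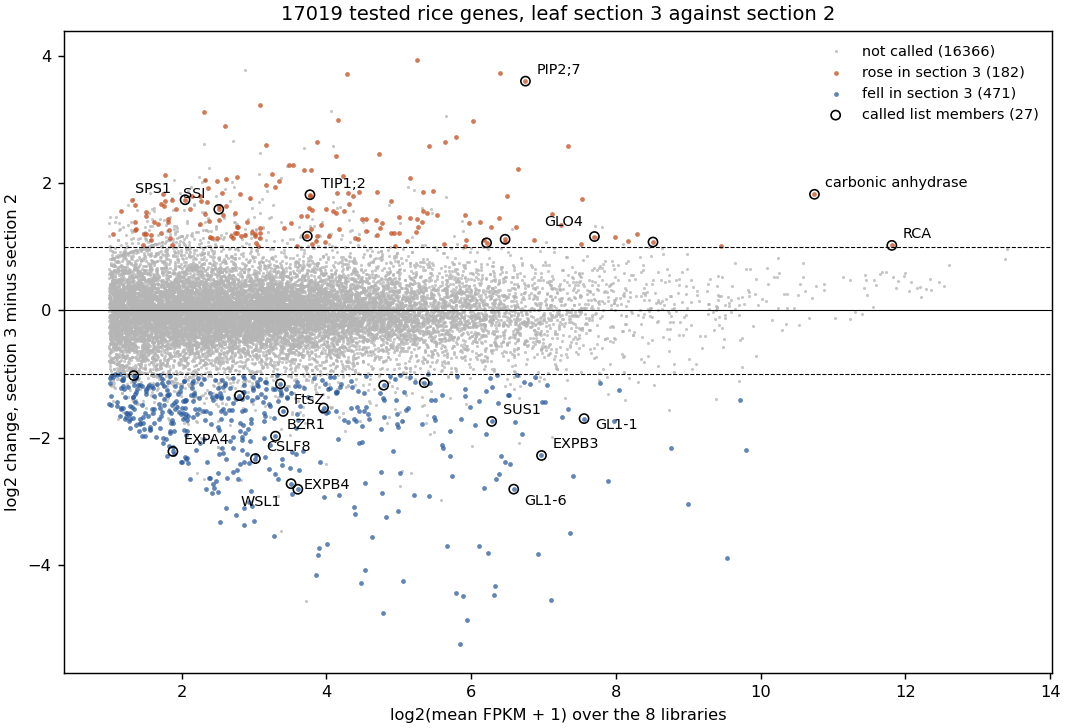
Log2 change between section 3 and section 2 (vertical axis) against log2 of mean FPKM + 1 over the 8 libraries (horizontal axis) for each tested gene. Orange points are the 182 genes that rose, blue points the 471 that fell, grey points the rest, rings mark the 27 called members of the gene lists, and dashed lines mark a log2 change of 1 and -1. Carbonic anhydrase and RCA stand out among the called genes by their high level.

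The genes that fell were mostly highest at the low-numbered end of the leaf. Of the 471 that fell, 463 had their highest section mean in section 1 or 2, as did 43.9% of all tested genes. Of the 182 that rose, 39 had it in section 3 or 4, 91 in sections 5 to 8 and 52 in sections 9 to 11, against 12.9%, 21.7% and 21.4% of all tested genes. Part of this is fixed by the choice of genes, since those that fell were chosen as lower in section 3 than in section 2 and those that rose as higher. Relative to section 2, the median gene that rose stood at 1.40 in section 3, 2.20 in section 4 and 2.93 in section 7 on the log2 scale. The median gene that fell stood at -1.66 in section 3, -2.18 in section 4 and -2.51 in section 7.

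The largest changes belonged to loci that are in none of the gene lists. LOC_Os08g41860 had 113, 72.9, 31.4 and 48.6 FPKM in section 3, against 16.5, 13.5, 0 and 0 FPKM in section 2 (log2 change 3.92 ± 1.14 SE, adjusted p = 0.0340). It was listed at 0 in replicates 3 and 4 of section 2, and the sections did not overlap. LOC_Os01g63190 had 350.2, 138, 38.9 and 83.1 FPKM in section 3, against 36.2, 14.9, 2.08 and 1.87 FPKM in section 2 (log2 change 3.73 ± 0.60 SE, adjusted p = 5.35e-05). In this gene replicate 1 held the highest value of each section, and every section 3 value lay above every section 2 value. LOC_Os06g35970 had 0, 1.31, 2.11 and 1.46 FPKM in section 3, against 14.9, 73.2, 129 and 232 FPKM in section 2 (log2 change -5.24 ± 0.41 SE, adjusted p = 4.01e-11). LOC_Os11g30560 had 0, 4.43, 1.19 and 8.197 FPKM in section 3, against 30.5, 75.4, 157 and 207 FPKM in section 2 (log2 change -4.87 ± 0.45 SE, adjusted p = 8.99e-10). Both of these genes were listed at 0 in replicate 1 of section 3 and were lowest in replicate 1 of section 2. In sections 4 to 11 their means were at most 0.401 and 0.312 FPKM. Those libraries entered the shared spread, so the SE of these 2 genes may understate their spread in sections 2 and 3. The call of LOC_Os08g41860 ended with a pseudocount of 0.1 (log2 change 5.603) and without replicate 2 (4.45), 3 (3.56) or 4 (3.35). Its adjusted p ran between 0.0179 and 0.191 over the alternatives.

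Other genes are described through 36 lists of rice loci. These lists pair loci with names by hand and were not checked against a rice annotation. They were chosen with earlier results of these data known. Counts of list members set beside shares of all tested genes, here and below, are therefore no independent test. The lists hold 425 members, of which 324 were tested, 100 fell below the limit of 1 FPKM and 1 was not found in the table. The members nearest that limit were SPS11 below it (mean 0.993 FPKM) and St1 above it (1.06 FPKM). Of the tested members 11 rose and 16 fell, against 1.07% and 2.77% of all tested genes. When only the 8 libraries were fitted, 5 of these 27 calls were kept: carbonic anhydrase, GLO4, CSLF8, WSL1 and BZR1. Carbonic anhydrase, GLO4, CSLF8 and WSL1 kept their calls under all 12 alternative settings tried.

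The section labels were set against markers of leaf cell types. Markers such as RCA, WSL1, GL1-1 and ONI1 are also members of the lists described below. Their sums are therefore no separate check on those lists. Mesophyll markers (Rubisco small subunits, RCA, light-harvesting proteins and PRK, 7 of 8 tested, 1 rose) summed to 46322 to 53786 FPKM in section 3 and 24412 to 35415 FPKM in section 2. The 6 xylem and fibre wall markers, none of which was called, summed to 234 to 325 FPKM in section 3 and 344 to 487 FPKM in section 2. The 6 markers of epidermis and cuticle, 5 of them tested and 2 fallen, summed to 282 to 566 FPKM in section 3 and 460.1 to 608 FPKM in section 2. Of the 6 KNOX meristem markers, 5 were listed at 0 in all 8 libraries (OSH1, OSH6, OSH15, OSH43 and OSH71). The other, OSH3, had 0 to 1.24 FPKM in section 3 and 0.656 to 1.64 FPKM in section 2. The stomatal precursor markers SPCH1, SPCH2 and MUTE and the root marker LSI2 were also listed at 0 in all 8, and LSI1, the other root marker, reached at most 0.873 FPKM. All 6 stomatal lineage markers together summed to 2.95 to 7.08 FPKM in section 3 and 4.81 to 16.5 FPKM in section 2. In pieces of whole leaf, fewer cells of a type and less RNA per cell cannot be told apart. The part of cell type shares in the results below was not tested.

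**Figure D2:**
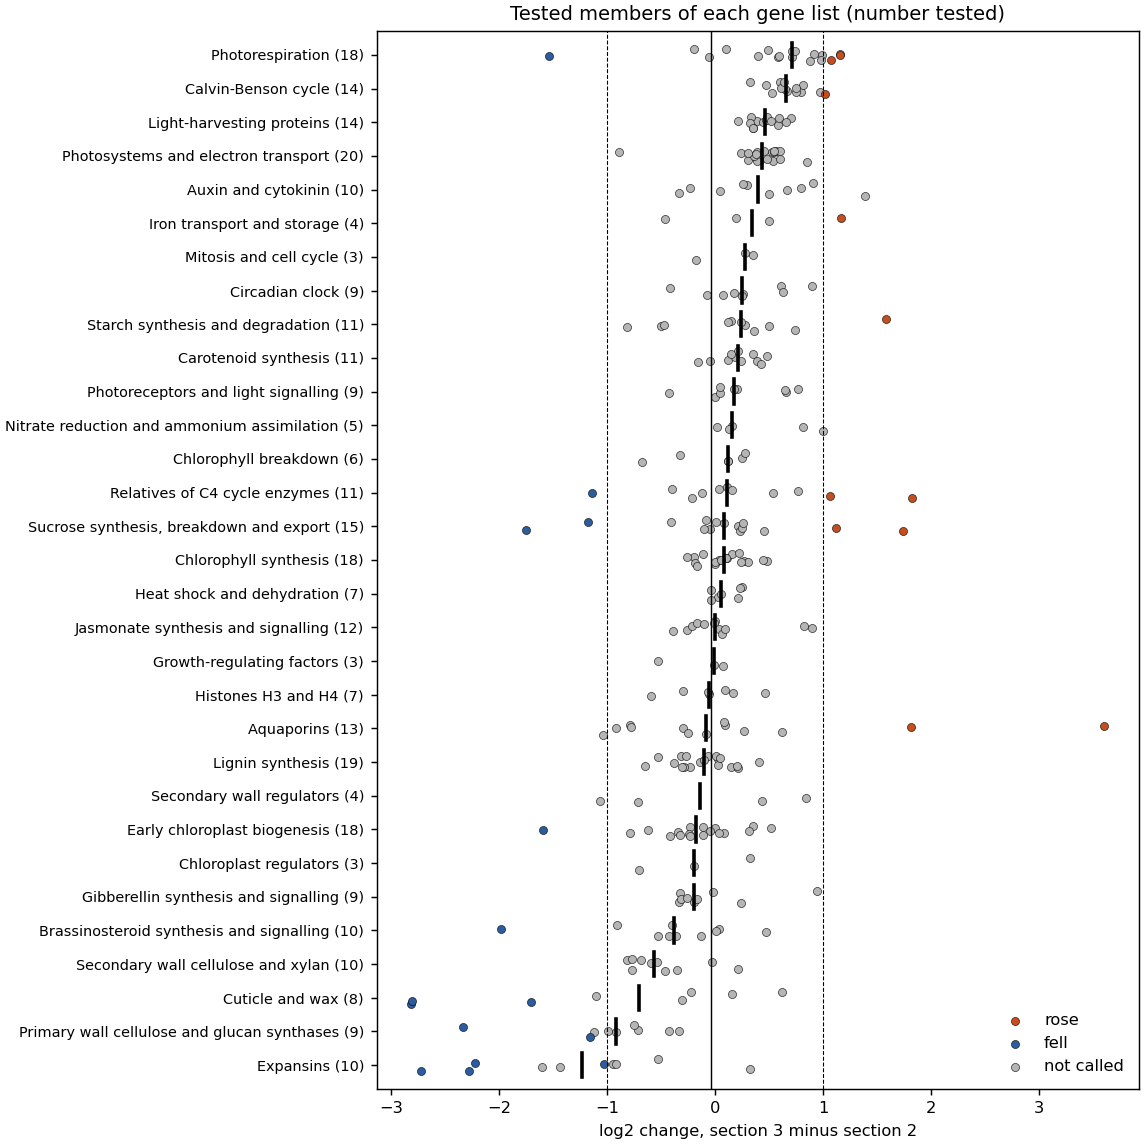
Log2 change between section 3 and section 2 (horizontal axis) of each tested member (points) of the 31 lists with at least 3 tested members, with the number tested in brackets. Thick bars are list medians, the thin solid line is the median of all tested genes (-0.04) and the dashed lines mark 1 and -1. Photorespiration and the Calvin-Benson cycle have the highest medians (0.71 and 0.65), expansins the lowest (-1.23).

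Carbon fixation genes were higher in section 3, in all 14 tested members of the Calvin-Benson cycle by their mean, against 46.2% of all tested genes. Of 16 listed members 14 were tested, and 1 of them rose, against 1.07% of all tested genes. The median log2 change of the 14 was 0.65, against -0.04 over all tested genes. RCA, Rubisco activase, frees Rubisco of inhibiting sugar phosphates and was the member that rose. It had 5998, 4619.9, 3642 and 4976 FPKM in section 3, against 3048, 2594, 1922 and 1959 FPKM in section 2. Every section 3 value exceeded every section 2 value (log2 change 1.02 ± 0.21 SE, adjusted p = 0.00175). RCA lost its call under quantile normalization (log2 change 0.76) and without replicate 4 (0.91), and its adjusted p ran between 0.000646 and 0.105 over the alternatives.

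A further 6 members of the cycle passed the adjusted p at a change below 1. All were higher in section 3, where 1.74% of all tested genes passed it at any size. These were RbcS5 (log2 change 0.82), a small subunit of Rubisco, and PRK (0.66), which regenerates the Rubisco substrate. SBPase (0.65), plastid aldolase (0.61), plastid PGK (0.75) and TKL1 (0.64), enzymes of sugar phosphate interconversion, completed them. In each of the 6 section 3 lay above section 2 without overlap, which passing the adjusted p made likely. Over all 14 tested members of the cycle this held in 13, against 4.2% of all tested genes. RbcS2, the small subunit with the highest mean over the 8 libraries, had 15644, 14722, 14854 and 11954 FPKM in section 3, against 7695, 7869, 7134 and 6501 FPKM in section 2. Although these values did not overlap either, RbcS2 missed the threshold (log2 change 0.97 ± 0.32 SE, adjusted p = 0.0741). The Rubisco small subunits together took 3.88 to 5.42% of all FPKM in section 3 and 2.29 to 3.12% in section 2. Reads shared by near-identical small subunit genes may have been divided among them, so single RbcS values are uncertain.

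Photorespiration, which salvages the carbon of Rubisco's oxygenase product, had a median log2 change of 0.71 over its 18 members, all tested. Of these 2 rose and 1 fell, against 1.07% and 2.77% of all tested genes. A further 7 passed the adjusted p at a smaller change, all higher in section 3, where 1.74% of all tested genes passed it at any size. GLO4, a glycolate oxidase of the peroxisome, had 348, 254, 284 and 262 FPKM in section 3, against 149, 134, 111 and 118 FPKM in section 2. The 4 values of section 3 lay well above the 4 of section 2 (log2 change 1.16 ± 0.19 SE, adjusted p = 8.54e-05). GGAT, which converts glyoxylate to glycine, had 604, 516, 388 and 447 FPKM in section 3, against 316, 309, 172 and 163 FPKM in section 2. Its sections did not overlap (log2 change 1.07 ± 0.21 SE, adjusted p = 0.000748), and replicate 1 was highest in each. GGAT lost its call without replicate 4 (log2 change 0.95), and its adjusted p ran between 1.97e-06 and 0.0820 over the alternatives.

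GLO3, another gene of the glycolate oxidase family, went the other way. It had 2.37, 6.30, 14.0 and 7.50 FPKM in section 3, against 13.8, 18.3, 31.0 and 23.3 FPKM in section 2, lower in section 3 in all 4 same-numbered pairs, with a slight overlap between replicate 3 of section 3 and replicate 1 of section 2 (log2 change -1.54 ± 0.43 SE, adjusted p = 0.0261). The call of GLO3 ended when any of replicates 1 to 4 was left out (log2 changes -1.34, -1.58, -1.68 and -1.54) and with a pseudocount of 0.1 (-1.69), with adjusted p up to 0.587. GLO1, the most strongly shifted member below the size threshold, had 557, 458, 419 and 432 FPKM in section 3, against 275, 233, 229 and 201 FPKM in section 2 (log2 change 0.99 ± 0.16 SE, adjusted p = 7.62e-05). The others of this kind were PGLP1, the phosphatase that opens the pathway (0.98), HPR1, hydroxypyruvate reductase (0.92), and the aminotransferase AGT1 (0.88). GLYK, glycerate kinase (0.72), and the ammonium-recovering enzymes Fd-GOGAT (0.71) and GS2 (0.74) were the last of them. GS2, the most abundant member, averaged 1923 ± 399 FPKM in section 3 and 1144 ± 178 FPKM in section 2 (SD, n = 4 each).

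CATC, the catalase that removes the peroxide made by glycolate oxidase, missed the threshold. It had 421, 312, 194 and 231 FPKM in section 3, against 211, 169.8, 76.7 and 85.9 FPKM in section 2, higher in section 3 in each of the 4 pairs although the sections overlapped (log2 change 1.15 ± 0.40 SE, adjusted p = 0.0949). With the replicate number as a block CATC rose (log2 change 1.15, adjusted p = 0.00588). The glycine decarboxylase subunits GDCP1 (0.10), GDCP2 (0.58), GDCH (0.59) and GDCT (0.49) were not called. The same held for SHMT1 (0.40), GLO5 (-0.20) and the malate transporter DiT1 (-0.058).

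Rice relatives of C4 cycle enzymes held calls in both directions. Of 13 listed members 11 were tested, 2 rose and 1 fell, against 1.07% and 2.77% of all tested genes, and the median log2 change was 0.11. Carbonic anhydrase, which interconverts CO2 and bicarbonate, had 3629, 2728, 2045 and 2236 FPKM in section 3, against 1057, 908, 522 and 577 FPKM in section 2. Section 3 lay above section 2 without overlap, and the means differed 3.47-fold (log2 change 1.82 ± 0.35 SE, adjusted p = 0.000664). PPDKB, pyruvate orthophosphate dikinase, which regenerates the substrate of PEP carboxylase, had 128, 109, 74.1 and 80.2 FPKM in section 3, against 72.6, 60.7, 26.9 and 35.1 FPKM in section 2. Its sections were separate by a narrow margin (log2 change 1.06 ± 0.25 SE, adjusted p = 0.00699). PPDKB lost its call without replicate 3 (log2 change 0.94) and without replicate 4 (1.02), and its adjusted p ran between 0.000663 and 0.140 over the alternatives.

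NADP-ME2, an NADP-malic enzyme that releases CO2 from malate, was the member that fell. It had 22.0, 22.2, 19.9 and 26.5 FPKM in section 3, against 23.6, 42.3, 79.9 and 82.6 FPKM in section 2. Section 3 was nearly uniform, whereas replicate 1 of section 2 lay close to it and the other 3 were higher, so the sections overlapped (log2 change -1.14 ± 0.27 SE, adjusted p = 0.00672). NADP-ME2 lost its call without replicate 2 (log2 change -1.22), without replicate 3 (-0.87) and without replicate 4 (-0.98), and its adjusted p ran between 0.00112 and 0.154 over the alternatives. PEPC2a, the PEP carboxylase relative with the highest level, averaged 98.5 FPKM in section 3 and 95.1 FPKM in section 2 (log2 change 0.037), and PEPC3 averaged 30.8 FPKM in section 3 and 17.5 FPKM in section 2 (log2 change 0.77, adjusted p = 0.116). NADP-MDH (0.15), the plastid NADP-ME of chromosome 1 (0.11) and PEPCK (0.53) were not called either. PEPC4 and PPDKA lay below the limit of 1 FPKM, at no more than 0.995 and 0.485 FPKM in any library.

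**Figure D3:**
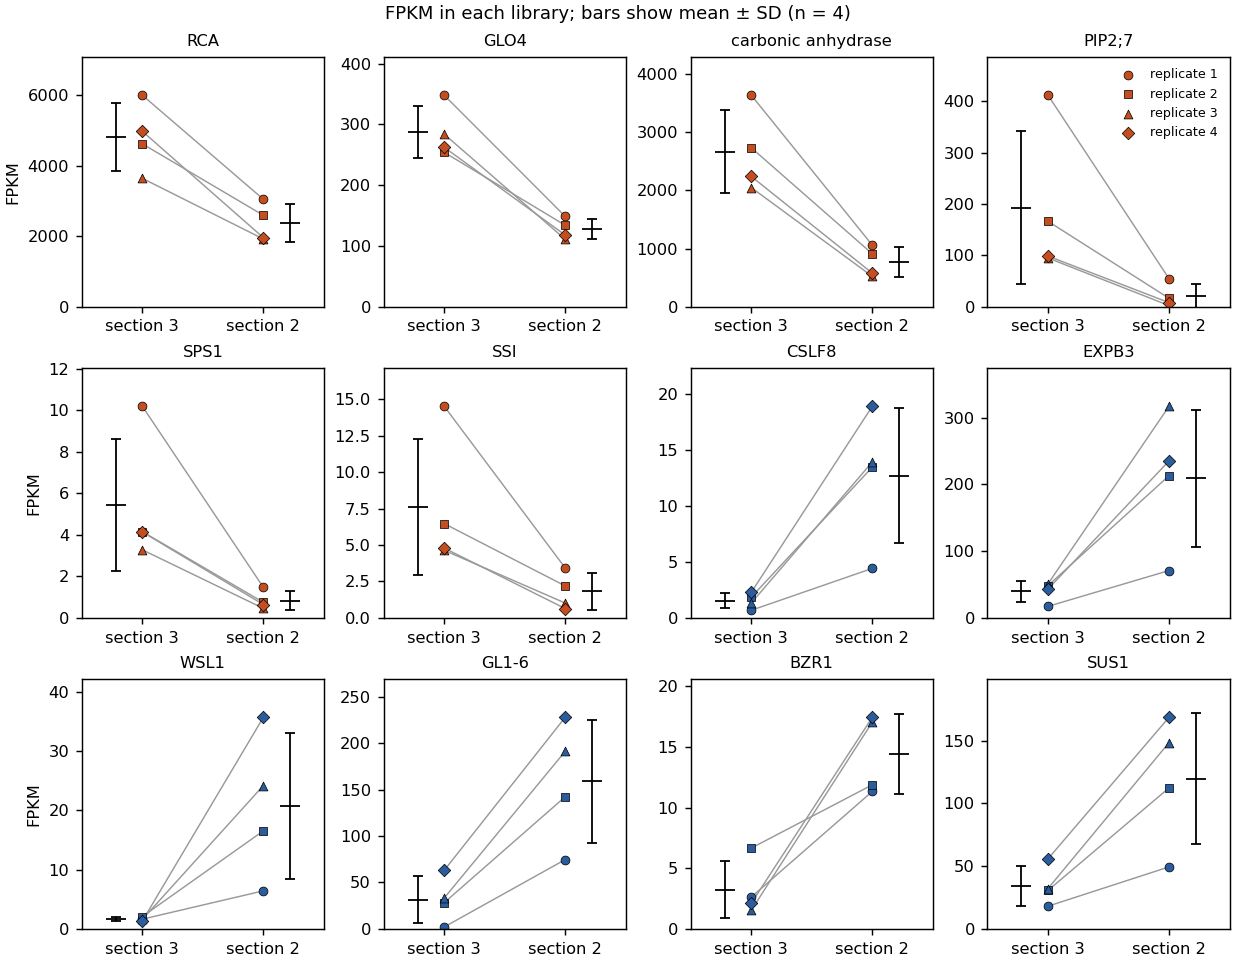
FPKM of 12 called genes in each library of section 3 (left) and section 2 (right). Symbols mark the replicate, grey lines join libraries of the same replicate, and bars beside the points show mean ± SD (n = 4). Orange panels are genes that rose and blue panels genes that fell. Replicate 1 is highest in section 3 in every orange panel, and lowest in section 2 in every blue panel.

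The light reactions gave no call, although most members had a higher mean in section 3. None of the 14 light-harvesting proteins and none of the 20 tested of 21 members of the photosystems and electron transport were called in limma. A higher mean log2 value in section 3 was found in all 14 and in 19 of the 20, against 46.2% of all tested genes. Section 3 lay above section 2 without overlap in 5 and 13 of them, against 4.2% of all tested genes. At an unadjusted p under 0.05, 5 and 12 of them were higher, against 6.41% of all tested genes. On the lower side 1 photosystem member passed it, against 8.76% of all tested genes. PsbR, that lower member, whose pairing with a locus is doubtful, fell without replicate 3 (log2 change -1.07, adjusted p = 0.0303). Their median log2 changes were 0.46 and 0.44, and under quantile normalization 0.0015 and 0.17. Lhcb1 (cab1R), the antenna gene with the highest mean over the 8 libraries, had 8054, 7911, 5509 and 9109 FPKM in section 3, against 6177, 5407, 3649.6 and 3723 FPKM in section 2. These values overlapped, with replicate 3 of section 2 the lowest (log2 change 0.70 ± 0.39 SE, adjusted p = 0.417). Fd1, ferredoxin, the soluble electron carrier of photosystem I, averaged 5259.7 ± 632 FPKM in section 3 and 4160.1 ± 922 FPKM in section 2 (SD, n = 4 each, log2 change 0.36, and -0.021 under quantile normalization). LFNR2, ferredoxin-NADP reductase, had 565, 412, 402 and 470.0 FPKM in section 3, against 291, 252, 208 and 269.9 FPKM in section 2 and passed the adjusted p at a change below 1 (log2 change 0.85 ± 0.18 SE, adjusted p = 0.00237). Lhcb1 copies are nearly identical, so the split of reads among them is uncertain.

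No pigment gene was called. All 18 chlorophyll synthesis members, 11 carotenoid members and 6 chlorophyll breakdown members were tested in limma. At an unadjusted p under 0.05, 1 chlorophyll synthesis member and 4 carotenoid members were higher, against 6.41% of all tested genes. None was lower. Median log2 changes were 0.078, 0.22 and 0.12. CRD1, a subunit of the cyclase that closes the fifth ring of chlorophyll, averaged 1727 ± 78.3 FPKM in section 3 and 1403 ± 140.1 FPKM in section 2 (SD, n = 4 each, log2 change 0.30 ± 0.17 SE, adjusted p = 0.437). PSY2, phytoene synthase at the entry of the carotenoid pathway, averaged 154 ± 11.5 FPKM in section 3 and 122 ± 20.9 FPKM in section 2 (SD, n = 4 each, log2 change 0.35 ± 0.14 SE, adjusted p = 0.174). NYC1, a chlorophyll b reductase of breakdown, averaged 46.1 ± 13.1 FPKM in section 3 and 41.2 ± 6.42 FPKM in section 2 (SD, n = 4 each, log2 change 0.12, and -0.068 without replicate 4).

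Genes of early chloroplast formation gave 1 call. Of 19 members 18 were tested, 1 fell, against 2.77% of all tested genes, and none rose. A lower mean log2 value in section 3 was found in 12 of the 18, against 53.8% of all tested genes, and the median log2 change was -0.17. At an unadjusted p under 0.05, 3 were higher and 2 lower, against 6.41% and 8.76% of all tested genes. FtsZ, the tubulin-like protein of the plastid division ring, was the member that fell. It had 2.07, 4.13, 6.06 and 4.16 FPKM in section 3, against 7.24, 10.8, 23.3 and 19.0 FPKM in section 2. Every section 3 value lay below every section 2 value, with replicate 1 lowest in each section (log2 change -1.59 ± 0.36 SE, adjusted p = 0.00376). FtsZ lost its call with a pseudocount of 0.1 (log2 change -1.80) and without replicate 3 (-1.52), and its adjusted p ran between 0.00197 and 0.501 over the alternatives. V2, a plastid guanylate kinase, averaged 9.58 FPKM in section 3 and 17.1 FPKM in section 2 (log2 change -0.79, adjusted p = 0.154). SIG6, a sigma factor of plastid RNA polymerase, passed the adjusted p on the higher side at a change below 1 (log2 change 0.52). CPN60 beta, the plastid chaperonin and most abundant member, averaged 2016 ± 552 FPKM in section 3 and 2137 ± 351 FPKM in section 2 (SD, n = 4 each, log2 change -0.12, and 0.020 without replicate 1).

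The regulators of chloroplast development were not called. GLK1, a transcription factor of photosynthesis genes, averaged 78.7 ± 7.96 FPKM in section 3 and 62.8 ± 7.33 FPKM in section 2 (SD, n = 4 each, log2 change 0.32 ± 0.17 SE, adjusted p = 0.362), and GLK2 averaged 18.3 ± 3.22 FPKM in section 3 and 21.0 ± 3.00 FPKM in section 2 (SD, n = 4 each, log2 change -0.19 ± 0.19 SE, adjusted p = 0.751). CGA1, a GATA factor that promotes chloroplast number, had 30.3, 34.7, 40.4 and 30.9 FPKM in section 3, against 45.1, 47.1, 83.1 and 55.1 FPKM in section 2. Its sections did not overlap, yet the test missed the threshold (log2 change -0.71 ± 0.32 SE, adjusted p = 0.263).

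The called sucrose genes were enzymes of synthesis on one side and of cleavage on the other. Of 17 members 15 were tested, 2 rose and 2 fell, against 1.07% and 2.77% of all tested genes, and the median log2 change was 0.08. Both that rose belong to sucrose synthesis in the cytosol, and both that fell are sucrose synthases, which cleave sucrose in growing tissue. SPS1, sucrose-phosphate synthase, had 10.2, 4.16, 3.28 and 4.14 FPKM in section 3, against 1.47, 0.749, 0.458 and 0.642 FPKM in section 2. Section 3 lay above section 2 throughout, and replicate 1 of section 3 stood far above the other 3 (log2 change 1.74 ± 0.27 SE, adjusted p = 3.05e-05). Cytosolic FBPase, which supplies hexose phosphate to that enzyme, had 162, 126, 99.99 and 89.5 FPKM in section 3, against 82.7, 58.2, 35.2 and 47.2 FPKM in section 2, with no overlap (log2 change 1.11 ± 0.29 SE, adjusted p = 0.0139). Its call ended without replicate 2 (log2 change 1.12) or 3 (0.99), and its adjusted p ran between 0.00487 and 0.155 over the alternatives.

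SUS1, a sucrose synthase, had 18.1, 30.7, 32.2 and 55.8 FPKM in section 3, against 49.4, 112, 148 and 169 FPKM in section 2. Within each pair section 3 was lower, while replicate 4 of section 3 exceeded replicate 1 of section 2 (log2 change -1.75 ± 0.31 SE, adjusted p = 0.000230). SUS1 lost its call with a pseudocount of 0.1 (log2 change -1.78), and its adjusted p ran between 0.000124 and 0.234 over the alternatives. SUS2 had 12.3, 16.7, 15.0 and 16.4 FPKM in section 3, against 16.7, 35.9, 54.9 and 45.7 FPKM in section 2, again lower in section 3 in all 4 pairs and with a touch of overlap at replicate 1 of section 2 (log2 change -1.178 ± 0.25 SE, adjusted p = 0.00202). SUS2 lost its call without replicate 3 (log2 change -0.97) and without replicate 4 (-1.09), and its adjusted p ran between 0.000503 and 0.114 over the alternatives. Genes of sucrose and triose export were not called. TPT, the triose phosphate translocator of the chloroplast envelope, averaged 1054 ± 61.5 FPKM in section 3 and 886 ± 103 FPKM in section 2 (SD, n = 4 each, log2 change 0.26 ± 0.23 SE, adjusted p = 0.716). The sucrose transporter SUT1 of phloem loading averaged 38.2 FPKM in section 3 and 31.7 FPKM in section 2 (log2 change 0.25) and SWEET13 19.8 FPKM in section 3 and 14.1 FPKM in section 2 (0.45).

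All 11 starch members were tested, 1 rose, against 1.07% of all tested genes, and the median log2 change was 0.24. SSI, a soluble starch synthase that extends short glucan chains, had 14.5, 6.47, 4.64 and 4.79 FPKM in section 3, against 3.43, 2.19, 1.02 and 0.641 FPKM in section 2. No section 2 value reached a section 3 value, and replicate 1 was highest in each section (log2 change 1.59 ± 0.25 SE, adjusted p = 4.24e-05). AGPS1, a small subunit of ADP-glucose pyrophosphorylase, passed the adjusted p on the lower side at a change below 1, with 8.58, 11.0, 12.2 and 8.72 FPKM in section 3, against 19.5, 18.2, 18.1 and 18.0 FPKM in section 2 (log2 change -0.82 ± 0.24 SE, adjusted p = 0.0322). AGPS2, the more abundant small subunit, averaged 159.8 ± 26.6 FPKM in section 3 and 131 ± 6.28 FPKM in section 2 (SD, n = 4 each, log2 change 0.28 ± 0.21 SE, adjusted p = 0.636).

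Aquaporins, the channels for water and small solutes, had 16 members, of which 13 were tested and 2 rose, against 1.07% of all tested genes. The median of the 13 was -0.084. PIP2;7, a channel of the plasma membrane, had 412, 166, 95.0 and 98.7 FPKM in section 3, against 54.8, 16.6, 2.42 and 8.14 FPKM in section 2. The sections did not overlap, but replicate 1 of section 2 came within a factor of 1.74 of the lowest section 3 value (log2 change 3.60 ± 0.60 SE, adjusted p = 8.54e-05). Section 3 averaged 9.42 times the level of section 2. TIP1;2, a channel of the vacuole membrane, had 56.1, 12.4, 6.13 and 8.45 FPKM in section 3, against 10.8, 5.27, 1.34 and 0.942 FPKM in section 2. Replicate 1 stood above the other 3 in each section, and its section 2 value overlapped the section 3 range (log2 change 1.81 ± 0.50 SE, adjusted p = 0.0240). TIP1;2 lost its call without replicate 2 (log2 change 2.06), without replicate 3 (1.88) and without replicate 4 (1.66), and its adjusted p ran between 0.00149 and 0.257 over the alternatives. PIP1;1, the most abundant member, averaged 363 ± 107 FPKM in section 3 and 297 ± 58.9 FPKM in section 2 (SD, n = 4 each, log2 change 0.27 ± 0.22 SE, adjusted p = 0.673). PIP genes share long stretches of sequence, so reads may have been divided among them.

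Iron genes had 7 members, of which 4 were tested and 1 rose, against 1.07% of all tested genes, with a median log2 change of 0.34. VIT1, a vacuolar iron transporter, had 18.8, 19.9, 15.3 and 12.6 FPKM in section 3, against 15.5, 8.93, 2.68 and 5.06 FPKM in section 2. Section 3 was higher in each pair, and replicate 1 of section 2 lay among the section 3 values (log2 change 1.16 ± 0.32 SE, adjusted p = 0.0241). VIT1 lost its call without replicate 2 (log2 change 1.19), without replicate 3 (0.84) and without replicate 4 (1.16), and its adjusted p ran between 0.0101 and 0.251 over the alternatives. FER2, an iron storage ferritin, averaged 27.1 ± 13.1 FPKM in section 3 and 23.6 ± 12.4 FPKM in section 2 (SD, n = 4 each, log2 change 0.19, and -0.22 without replicate 3).

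**Figure D4:**
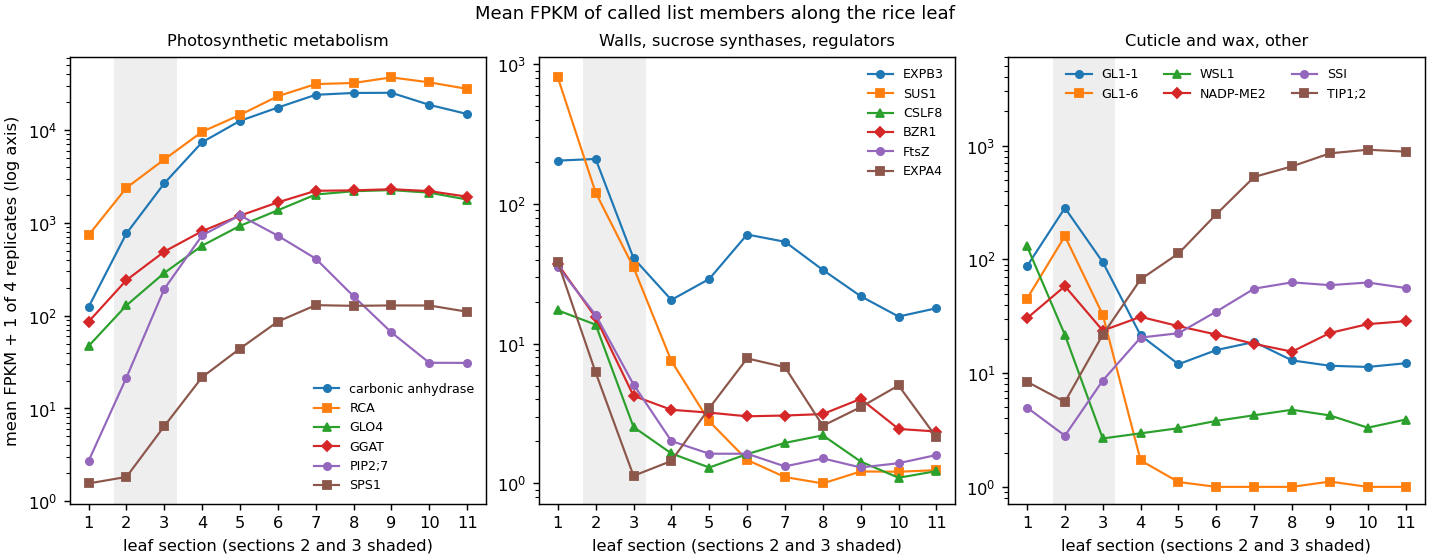
Mean FPKM + 1 of 4 replicates (vertical log axis) of 18 called genes in leaf sections 1 to 11 (horizontal axis), with sections 2 and 3 shaded. Genes of photosynthetic metabolism climbed past section 3, PIP2;7 to a peak in section 5. SUS1, CSLF8, BZR1, FtsZ and EXPA4 were highest in section 1, and EXPB3, GL1-1, GL1-6 and NADP-ME2 in section 2.

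Primary wall genes were lower in section 3. All 9 primary wall cellulose and glucan synthase members were tested. A lower mean log2 value there was found in all 9, against 53.8% of all tested genes. In 6 of the 9 section 3 lay below section 2 without overlap, against 5.74% of all tested genes. Of the 9, 2 were called, against 2.77% of all tested genes. The median log2 change of the 9 was -0.92. CSLF8, of the cellulose synthase-like family that holds the mixed-linkage glucan synthases of grasses, had 0.680, 1.85, 1.33 and 2.28 FPKM in section 3, against 4.43, 13.5, 13.9 and 18.9 FPKM in section 2. Every section 3 value lay under every section 2 value, and replicate 1 of section 2 was the lowest of its group (log2 change -2.33 ± 0.33 SE, adjusted p = 4.98e-06). KOR (GLU1), a membrane-bound endoglucanase needed for cellulose deposition, had 5.07, 4.86, 4.65 and 6.60 FPKM in section 3, against 9.80, 11.5, 13.0 and 19.0 FPKM in section 2, without overlap (log2 change -1.16 ± 0.32 SE, adjusted p = 0.0220). The KOR (GLU1) call ended when any of replicates 1 to 4 was left out (log2 changes -1.26, -1.18, -1.11 and -1.08) and with a pseudocount of 0.1 (-1.28), with adjusted p up to 0.124.

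CESA5, a cellulose synthase, had 7.75, 11.2, 10.2 and 12.2 FPKM in section 3, against 19.8, 25.6, 22.5 and 26.2 FPKM in section 2. Its sections were well apart, yet it narrowly missed the threshold (log2 change -1.12 ± 0.35 SE, adjusted p = 0.0550), and with the replicate number as a block CESA5 fell (log2 change -1.12, adjusted p = 0.0257). CESA1 passed the adjusted p just under the size threshold, with 105, 175, 146 and 159 FPKM in section 3, against 262, 319.7, 277 and 290.4 FPKM in section 2 (log2 change -0.99 ± 0.28 SE, adjusted p = 0.0268). CESA3, the most abundant, averaged 280.0 ± 73.0 FPKM in section 3 and 373 ± 75.1 FPKM in section 2 (SD, n = 4 each, log2 change -0.43 ± 0.29 SE, adjusted p = 0.584). CSLF6, the main mixed-linkage glucan synthase of rice, averaged 162 ± 71.0 FPKM in section 3 and 290.1 ± 54.3 FPKM in section 2 (SD, n = 4 each). Its log2 change of -0.92 was not called (adjusted p = 0.373).

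Expansins, proteins that loosen the wall during cell growth, had the lowest median of all lists, -1.23. Of 13 members 10 were tested and 4 fell, against 2.77% of all tested genes. EXPB3, a beta-expansin, had 17.3, 48.4, 51.0 and 43.2 FPKM in section 3, against 71.0, 213, 317 and 235 FPKM in section 2. All section 3 values were below section 2, and replicate 1 was lowest in each (log2 change -2.28 ± 0.41 SE, adjusted p = 0.000230). EXPB4 had 0.883, 0.799, 3.01 and 1.33 FPKM in section 3, against 2.72, 18.1, 26.4 and 30.1 FPKM in section 2. Here replicate 1 of section 2 lay within the section 3 range, and the other 3 were far above it (log2 change -2.72 ± 0.48 SE, adjusted p = 0.000206).

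EXPA4, an alpha-expansin, had 0, 0, 0.534 and 0 FPKM in section 3, against 0.563, 5.51, 7.96 and 6.89 FPKM in section 2. Section 3 was listed at 0 in 3 of 4 libraries, and replicate 1 of section 2 was nearly as low (log2 change -2.22 ± 0.57 SE, adjusted p = 0.0134). EXPA4 lost its call without replicate 2 (log2 change -2.06), without replicate 3 (-2.11) and without replicate 4 (-1.96), and its adjusted p ran between 7.80e-05 and 0.194 over the alternatives. EXPA5 had 0, 0, 1.46 and 1.51 FPKM in section 3, against 1.54, 1.67, 3.83 and 2.24 FPKM in section 2, with no overlap but a narrow gap between the groups (log2 change -1.03 ± 0.29 SE, adjusted p = 0.0311). The EXPA5 call ended without replicate 1 (log2 change -0.92), 2 (-0.90) or 3 (-1.04), with a pseudocount of 0.1 (-2.51), under upper quartile scaling (-0.95) and under quantile normalization (-0.79), with adjusted p up to 0.272. EXPB6 had 5.94, 12.9, 19.1 and 17.9 FPKM in section 3, against 15.9, 42.8, 91.3 and 45.3 FPKM in section 2 (log2 change -1.61 ± 0.51 SE, adjusted p = 0.0573), and with the replicate number as a block EXPB6 fell (log2 change -1.61, adjusted p = 0.0296). EXPA7 passed the adjusted p at a change of -0.94, and EXPA2 (-1.43), EXPA10 (-0.92), EXPB7 (-0.53) and EXPB2 (0.32) were not called. Without replicate 1, EXPA2 (log2 change -1.66, adjusted p = 0.0255), EXPA7 (log2 change -1.12, adjusted p = 0.00583) and EXPB6 (log2 change -1.71, adjusted p = 0.0453) fell too. Expansin genes are similar in sequence, which leaves single values uncertain.

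Genes of the lignified secondary wall were not called. All 10 members for secondary wall cellulose and xylan were tested, with a median log2 change of -0.57. A lower mean log2 value in section 3 was found in 9 of the 10, against 53.8% of all tested genes. In limma, 3 were lower at an unadjusted p under 0.05, against 8.76% of all tested genes. BC15, a chitinase-like protein of cellulose deposition and the member with the highest mean over the 8 libraries, had 54.9, 88.9, 78.0 and 98.7 FPKM in section 3, against 127, 107, 141 and 168 FPKM in section 2. These values did not overlap, but the change missed the threshold (log2 change -0.77 ± 0.38 SE, adjusted p = 0.337). Of 20 lignin members 19 were tested with a median of -0.10, and none passed even an unadjusted p of 0.05.

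The switches of secondary wall formation were mixed, with 4 of 5 members tested and none called. At an unadjusted p under 0.05, 1 was higher and 2 were lower, against 6.41% and 8.76% of all tested genes. MYB61 had 24.3, 44.6, 52.8 and 41.4 FPKM in section 3, against 67.8, 79.5, 100.5 and 88.3 FPKM in section 2. It was lower in section 3 without overlap (log2 change -1.06 ± 0.37 SE, adjusted p = 0.0952). MYB103L averaged 5.63 ± 1.497 FPKM in section 3 and 10.2 ± 3.57 FPKM in section 2 (SD, n = 4 each, log2 change -0.72 ± 0.34 SE, adjusted p = 0.292). SWN1, a NAC master switch, averaged 13.3 ± 2.69 FPKM in section 3 and 9.75 ± 3.05 FPKM in section 2 (SD, n = 4 each, log2 change 0.44 ± 0.36 SE, adjusted p = 0.686). MYB58/63, named for its Arabidopsis relatives that activate lignin genes, averaged 4.60 ± 2.30 FPKM in section 3 and 2.11 ± 1.31 FPKM in section 2 (SD, n = 4 each, log2 change 0.84 ± 0.33 SE, adjusted p = 0.157), and under quantile normalization it rose (log2 change 1.17, adjusted p = 0.0239).

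Cuticle and wax genes were among the members with the largest falls. Of 11 members 8 were tested and 3 fell, against 2.77% of all tested genes, with a median log2 change of -0.71. WSL1, a ketoacyl-CoA synthase that lengthens fatty acids for wax, had 1.64, 2.09, 1.60 and 1.32 FPKM in section 3, against 6.42, 16.5, 24.2 and 35.7 FPKM in section 2. Section 3 was uniform and low, whereas the section 2 libraries were spread widely above it (log2 change -2.81 ± 0.37 SE, adjusted p = 1.44e-06). GL1-6, a relative of the maize wax gene GLOSSY1, had 2.07, 28.2, 33.2 and 62.95 FPKM in section 3, against 74.6, 142, 191 and 228 FPKM in section 2. Replicate 1 was lowest in each section, and the ranges came close without meeting (log2 change -2.81 ± 0.49 SE, adjusted p = 0.000185). GL1-1, of the same family, had 35.7, 90.03, 90.8 and 158 FPKM in section 3, against 172, 267, 301 and 388 FPKM in section 2, also without overlap (log2 change -1.70 ± 0.43 SE, adjusted p = 0.0106). GL1-1 lost its call without replicate 2 (log2 change -1.75), and its adjusted p ran between 0.00392 and 0.113 over the alternatives.

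ONI1, a further ketoacyl-CoA synthase with a role in shoot epidermis, averaged 272 ± 78.0 FPKM in section 3 and 182 ± 67.9 FPKM in section 2 (SD, n = 4 each, log2 change 0.62 ± 0.39 SE, adjusted p = 0.527). WR1, a regulator of wax synthesis, averaged 0.365 FPKM in section 3 and 2.099 FPKM in section 2 (log2 change -1.10, adjusted p = 0.214), and the epidermal homeodomain genes ROC1 (-0.31) and ROC5 (0.16) were not called.

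Stomatal lineage genes were mostly below the limit of 1 FPKM. Of 6 members 2 were tested and 1 fell, against 2.77% of all tested genes. ICE2, a partner of the stomatal bHLH factors, had 1.40, 2.95, 2.72 and 4.58 FPKM in section 3, against 4.302, 9.15, 10.3 and 12.3 FPKM in section 2, lower in section 3 in every pair with a slight overlap at replicate 4 of section 3 (log2 change -1.34 ± 0.30 SE, adjusted p = 0.00356). ICE2 lost its call without replicate 2 (log2 change -1.33), and its adjusted p ran between 0.00154 and 0.0909 over the alternatives. Unlike most genes that fell, ICE2 was highest far along the leaf. Its section means were 9.01, 2.91 and 1.68 FPKM in sections 2 to 4 and 22.1 FPKM in section 10, its highest. FAMA, which acts at guard cell formation, averaged 1.73 ± 1.181 FPKM in section 3 and 1.85 ± 1.30 FPKM in section 2 (SD, n = 4 each, log2 change -0.11, but 0.14 under quantile normalization and 0.40 without replicate 2).

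Hormone genes gave a single call. BZR1, a transcription factor of the brassinosteroid response, had 2.63, 6.66, 1.54 and 2.12 FPKM in section 3, against 11.3, 11.9, 17.1 and 17.5 FPKM in section 2. The sections did not overlap, and replicate 2 was the highest of section 3 (log2 change -1.98 ± 0.42 SE, adjusted p = 0.00194). BZR1 lost its call with a pseudocount of 0.1 (log2 change -2.32), without replicate 3 (-1.69) and without replicate 4 (-1.78), and its adjusted p ran between 0.000260 and 0.135 over the alternatives. It was the only call among 10 tested of 12 brassinosteroid members, against 2.77% of all tested genes that fell, and their median log2 change was -0.38. BRI1, the hormone's receptor, averaged 11.6 ± 2.62 FPKM in section 3 and 15.7 ± 1.68 FPKM in section 2 (SD, n = 4 each, log2 change -0.43 ± 0.31 SE, adjusted p = 0.621).

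Among 9 tested of 13 gibberellin members (median log2 change -0.20) none was called in limma. At an unadjusted p under 0.05, 1 was higher, against 6.41% of all tested genes. KAO, of gibberellin synthesis, rose under quantile normalization (log2 change 1.31, adjusted p = 0.0118). GID2, an F-box protein of gibberellin signalling, averaged 218 ± 38.3 FPKM in section 3 and 265 ± 73.9 FPKM in section 2 (SD, n = 4 each, log2 change -0.26 ± 0.23 SE, adjusted p = 0.717). Auxin and cytokinin members (10 of 12 tested) had a median of 0.39 with no call. Of the 10, 3 were higher at an unadjusted p under 0.05, against 6.41% of all tested genes. RR2, a response regulator induced by cytokinin, had 74.2, 93.0, 58.7 and 66.6 FPKM in section 3, against 57.5, 47.9, 38.8 and 38.8 FPKM in section 2, higher in section 3 without overlap but short of the threshold (log2 change 0.66 ± 0.22 SE, adjusted p = 0.0710). Jasmonate members (12 of 14 tested) had a median of -0.006 and no call. Of the 12, 1 was higher at an unadjusted p under 0.05, against 6.41% of all tested genes. JAZ6, a repressor of jasmonate signalling, averaged 55.0 ± 20.6 FPKM in section 3 and 53.5 ± 18.3 FPKM in section 2 (SD, n = 4 each, log2 change 0.033, and -0.092 without replicate 4).

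Light, clock, nitrogen and stress lists likewise held no call. Their counts at an unadjusted p under 0.05 stand against 6.41% of all tested genes on the higher side. Of 12 clock members 9 were tested (median 0.24, 2 higher at an unadjusted p under 0.05), and LHY, a morning gene, averaged 546 ± 54.4 FPKM in section 3 and 456 ± 55.7 FPKM in section 2 (SD, n = 4 each, log2 change 0.26 ± 0.14 SE, adjusted p = 0.417). PRR95, a pseudo-response regulator, rose under quantile normalization (log2 change 1.13, adjusted p = 0.0323). Of 10 photoreceptor and light signalling members 9 were tested (median 0.17, 2 higher at an unadjusted p under 0.05). The cryptochrome CRY2 passed the adjusted p at a change below 1, with 72.9, 59.6, 63.01 and 64.8 FPKM in section 3, against 57.3, 48.6, 32.9 and 30.6 FPKM in section 2 (log2 change 0.65 ± 0.18 SE, adjusted p = 0.0202). PIL1, a phytochrome-interacting factor, averaged 81.1 ± 26.8 FPKM in section 3 and 50.7 ± 14.4 FPKM in section 2 (SD, n = 4 each, log2 change 0.64 ± 0.26 SE, adjusted p = 0.171). Of 7 nitrate and ammonium members 5 were tested (median 0.16, 2 higher at an unadjusted p under 0.05). NiR, nitrite reductase, averaged 264 ± 28.5 FPKM in section 3 and 236 ± 21.2 FPKM in section 2 (SD, n = 4 each, log2 change 0.16 ± 0.24 SE, adjusted p = 0.870). Of 10 heat and dehydration members 7 were tested (median 0.055, none at an unadjusted p under 0.05). SNAC1, a NAC factor of drought response, averaged 67.5 ± 47.1 FPKM in section 3 and 59.9 ± 48.5 FPKM in section 2 (SD, n = 4 each, log2 change 0.23 ± 0.53 SE, adjusted p = 0.929), with replicate 1 of section 2 far above the other 3.

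Genes of dividing cells were mostly below the limit in both sections. Of 15 DNA replication members 13 lay below the limit of 1 FPKM, as did 13 of 16 mitosis members, 10 of 17 histone members, 8 of 11 growth-regulating factors, and all 4 SCARECROW and SHORT-ROOT and all 6 KNOX members. None of the tested members of these lists was called, and none passed an unadjusted p of 0.05 in limma. KNOLLE, the syntaxin of the cell plate, was listed at 0 in all 8 libraries, against a mean of 7.36 FPKM in section 1. MAD2, a spindle checkpoint protein, was also listed at 0 in all 8, against 3.34 FPKM in section 1. PCNA, the sliding clamp of DNA polymerase, had 0.604, 0, 1.176 and 0.608 FPKM in section 3, against 0.620, 0.506, 0.516 and 0.542 FPKM in section 2, while its section 1 mean was 14.6 FPKM. The tested members with the highest level were ORC2 (log2 change -0.05, and 0.027 under quantile normalization), the cell cycle inhibitor KRP1 (0.28) and GRF3 (-0.53). For H3.3 (chr3), a histone made outside S phase, it was -0.068, and 0.045 without replicate 1. Histone copies are nearly identical, so their values are uncertain.

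The step from section 2 to 3 was next set against the steps on either side, which share its libraries. From section 1 to 2, 1033 genes rose (6.07%) and 1399 fell (8.22%), 14.3% of those tested. From section 3 to 4, 137 rose (0.805%) and 310 fell (1.82%), 2.63% in all. In 305 genes (1.79%) the change between section 3 and 2 differed from that between section 2 and 1, and in 34 genes (0.2%) from that between section 4 and 3, by the limma contrast of the steps. Of the 305 the difference was positive in 180 (1.06%) and negative in 125 (0.734%), and of the 34 it was positive in 7 (0.0411%) and negative in 27 (0.159%). With the replicate number as a block the 305 became 513. Without replicate 1 these counts were 292 and 82, without replicate 2 they were 96 and 13, without replicate 3 they were 79 and 9, and without replicate 4 they were 72 and 3.

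Wax genes of the GLOSSY1 family turned at section 2. The log2 change of GL1-6 was 2.04 from section 1 to 2, -2.81 from section 2 to 3 and -3.65 from section 3 to 4. The first and second of these steps differed (difference -4.85 ± 0.86 SE, adjusted p = 0.000979), but not without replicate 3. GL1-1 likewise changed by 2.03, -1.70 and -2.01 over the 3 steps (difference -3.73 ± 0.74 SE, adjusted p = 0.00367), with the call lost without replicate 2, 3 or 4. In section means, GL1-6 stood at 44.1, 159, 31.6 and 0.708 FPKM in sections 1 to 4, and GL1-1 at 86.1, 282, 93.5 and 20.5 FPKM. NADP-ME2 also turned, at 0.82, -1.14 and 0.38 (difference -1.95 ± 0.47 SE, adjusted p = 0.0188), with the call lost without replicate 2, 3 or 4. WSL1 was the list member whose step differed from the following one. It changed by -2.76 and -2.81 over the first and second steps and by 0.074 over the third (difference -2.89 ± 0.64 SE, adjusted p = 0.0349), with the call lost without replicate 2, 3 or 4 or with a pseudocount of 0.1.

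In the other direction, 4 of the 13 tested aquaporins and SSI differed from their earlier step, against 1.06% of all tested genes. The aquaporins that rose between section 2 and 3, PIP2;7 (adjusted p = 0.749) and TIP1;2 (0.105), did not pass this contrast. PIP2;1 changed by -2.001 from section 1 to 2 and by -0.084 from section 2 to 3 (difference 1.92 ± 0.34 SE, adjusted p = 0.00125), a call that held under every alternative that gave this contrast. PIP1;2 (-1.70 and 0.094), PIP1;1 (-1.38 and 0.27) and PIP2;6 (-2.35 and -0.79) also passed. The PIP1;2 call was lost without replicate 4, and that of PIP1;1 without replicate 2, 3 or 4. PIP2;6 lost its call without replicate 1, 2, 3 or 4, with a pseudocount of 0.1, at a mean of at least 5 FPKM or without the mean-variance trend. SSI moved by -0.92 and then 1.59 (difference 2.51 ± 0.44 SE, adjusted p = 0.000901). The others in this direction were EXPA7 (-4.08 and -0.94), AGPL1 (-3.02 and -0.50), BRD2 (-2.79 and 0.038), KRP1 (-1.55 and 0.28) and H3 (chr1) (-4.70 and 0.087). Of these, EXPA7 lost its call with a pseudocount of 0.1, and H3 (chr1) without replicate 3 or 4. AGPL1 lost its call without replicate 2 or 4 or with a pseudocount of 0.1, BRD2 without replicate 1, 2, 3 or 4 or with a pseudocount of 0.1, and KRP1 without replicate 2, 3 or 4, with a pseudocount of 0.1 or at a mean of at least 5 FPKM. EXPA7, AGPL1, BRD2, H3 (chr1) and SSI lay below a mean of 5 FPKM and were not tested under that filter. PEPC2a was higher in section 2 than in section 1 by 1.26 and then changed by 0.037 (difference -1.22 ± 0.25 SE, adjusted p = 0.00541), with the call lost without replicate 2 or 3.

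**Figure D5:**
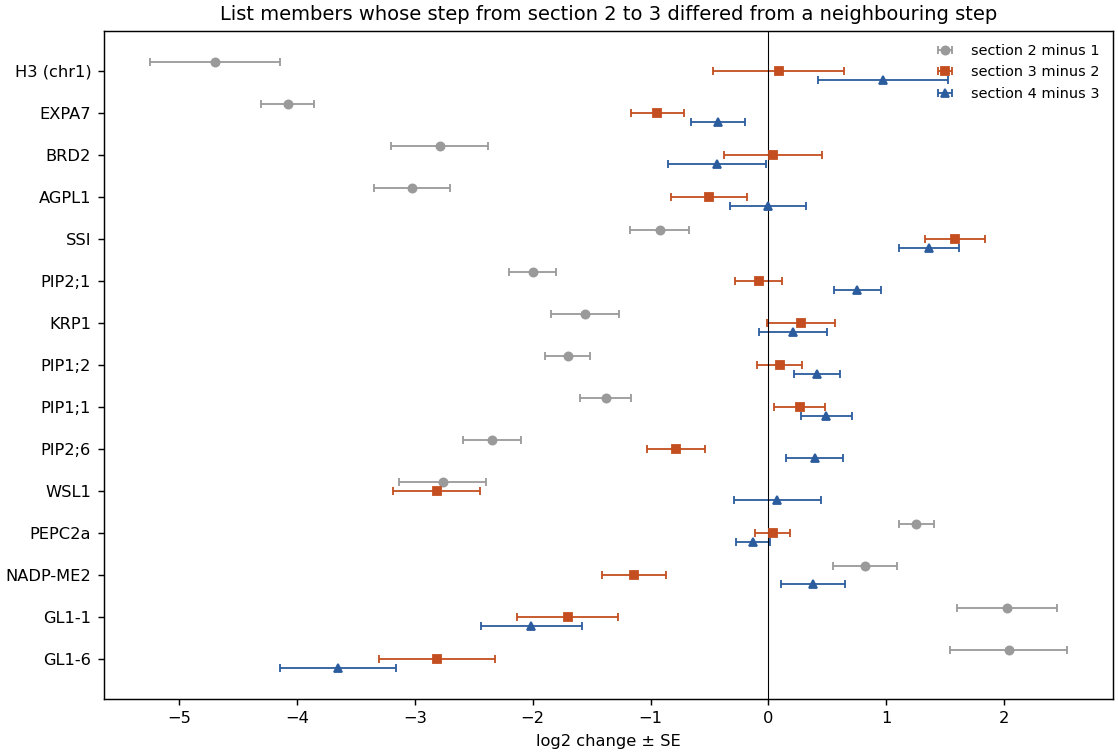
Log2 change ± SE (horizontal axis) of the 15 list members whose step from section 2 to section 3 (orange squares) differed from the step from section 1 to 2 (grey circles) or from section 3 to 4 (blue triangles). GL1-1, GL1-6 and NADP-ME2 lie right of 0 in the first step and left of 0 in the second. SSI lies left of 0 in the first step and right of it in the second.

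Carbonic anhydrase, RCA and GLO4 passed neither contrast of the steps. Carbonic anhydrase changed by 2.77, 1.82 and 1.48 over the 3 steps, RCA by 1.74, 1.02 and 1.01, and GLO4 by 1.48, 1.16 and 0.97. In section means, carbonic anhydrase stood at 123, 766, 2659.6 and 7376 FPKM in sections 1 to 4 and was highest in section 9, at 25140.4 FPKM. PIP2;7 stood at 1.72, 20.5, 193, 731 and 1201 FPKM in sections 1 to 5, its highest section. EXPB3 stood at 203, 209, 40.0 and 19.6 FPKM and SUS1 at 805, 119.7, 34.2 and 6.52 FPKM in sections 1 to 4.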

How the data were processed

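Polyadenylated RNA of rice leaf sections was sequenced from strand-specific libraries, per the labels' protocols. The authors deposited FPKM values per gene. TopHat2 2.0.10 and Cuffdiff 2.1.1 are named in the submitters' processing notes, and the rice genome build is not given in the sources used here. Read totals are unknown, so no counting interval was computed. Every value column carried a sample (0 without one), and the maize table was not used.

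Genes with a mean of at least 1 FPKM over the 8 libraries were tested on log2(FPKM + 1), which understates the change of low genes. limma 3.58.1 in R 4.3.3 was fitted with a mean-variance trend to all 44 rice libraries, with section as a factor of 11 levels. A gene was called at a Benjamini-Hochberg adjusted p under 0.05 over all tested genes and a log2 change of at least 1 in either direction, and the same rule was used for the contrasts of steps. The procedure was tested on simulated data. Single values per library were compared by an exact permutation test, which took the 8 libraries as unpaired. P-values measure the spread between pooled biological replicates.

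The labels' protocols read as if the leaves pooled for a replicate were cut into all sections, but do not state it outright. On that reading, libraries with the same number were taken as paired. The main fit did not use this pairing, and a replicate block was fitted as an alternative. The deviations of same-numbered libraries from their section means had r of 0.0767 to 0.295 (median 0.183), against -0.236 to 0.0838 for other pairs.

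The members and gene lists were chosen with earlier results of these data known. In each list the called member with the largest rise, that with the largest fall and the tested member with the highest mean over the 8 libraries were named, with all tested members of the short regulator lists. That rule named 52 members reported here, 1 more is not reported, and 10 called members outside it, together with all uncalled members beyond the rule, were named after their values were seen. Locus identifiers were limited to 2 with the largest rise and 2 with the largest fall at a mean of at least 5 FPKM and 1 direction in all 4 pairs. The alternatives were a replicate block, a pseudocount of 0.1, no filter, a mean of at least 5 FPKM, upper quartile and quantile scaling, the 8 libraries alone, no trend, and leaving out each replicate.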

Additional observations from a re-analysis of the deposited data

Results flagged for a closer look

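Values of 138 groups of 4 libraries, the 4 of section 3 or the 4 of section 2 for each named gene and for 3 measures of a library (summed FPKM, share of genes listed at 0 and share of Rubisco small subunits), were examined for 1 library far from the others, and 8 such values were found. Chance gives about 1 in 20 groups. Of the 8, 4 lay in section 3. SPS1 had 10.2 FPKM in replicate 1 (the others 3.28 to 4.16), and TIP1;2 had 56.1 FPKM in replicate 1 (the others 6.13 to 12.4). EXPA4 had 0.534 FPKM in replicate 3, with the others listed at 0. GLK2 had 23.1 FPKM in replicate 2 of section 3 (the others 16.3 to 16.86), and also stood out in replicate 2 of section 2, at 25.4 FPKM (the others 19.0 to 19.8). In section 2, CRD1 had 1195 FPKM in replicate 4 (the others 1455 to 1498). SNAC1 had 132 FPKM in replicate 1 of section 2 (the others 28.0 to 41.8), and MYB58/63 had 4.06 FPKM in replicate 4 of section 2 (the others 1.27 to 1.72).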

How the results depend on the processing

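A count was taken as moved if it changed by over 1.5 times. The count of genes that rose in section 3 was 182. It moved under quantile normalization (298), when only the 8 libraries were fitted (23) and without replicate 3 (110). Without replicate 1 (184), 2 (128) or 4 (125) it did not move. The count that fell was 471. It moved with a pseudocount of 0.1 (236), a mean of at least 5 FPKM (268) and the 8 libraries alone (85). It also moved without replicate 2 (304), 3 (270) or 4 (288), but not without replicate 1 (459). Pairing by the replicate number as a block gave 211 and 535, and 513 for the contrast with the step from section 1 to 2 (305 without the block). That contrast also moved with a pseudocount of 0.1 (115), no filter (822), a mean of at least 5 FPKM (134) and quantile normalization (567). It moved without replicate 2 (96), 3 (79) or 4 (72), but not without replicate 1 (292). The contrast with the step from section 3 to 4 (34) moved with no filter (68), a mean of at least 5 FPKM (13) and a replicate left out (3 to 82). Neither contrast exists in the fit to the 8 libraries, which lack sections 1 and 4. The block ended no call of a list member and added those of CATC, CESA5 and EXPB6. Uncalled members that were called under another alternative were GLO1, PGLP1, HPR1, CESA1, CESA5, MYB58/63, KAO, PRR95, EXPA2, EXPA7, EXPA10, EXPB6 and PsbR.

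Of the 27 called list members, 4 kept their calls under every alternative, and 8 when the fit to the 8 libraries was set aside. Uncalled members turned direction as follows. Under quantile normalization Fd1 had a log2 change of -0.021, ORC2 0.027 and FAMA 0.14. Over the fits with a replicate left out, log2 changes ran from -0.30 to 0.020 for CPN60 beta (positive without replicate 1), from -0.13 to 0.045 for H3.3 (chr3) (positive without replicate 1) and from -0.55 to 0.40 for FAMA (positive without replicate 2). They ran from -0.22 to 0.72 for FER2 (negative without replicate 3), from -0.068 to 0.26 for NYC1 and from -0.092 to 0.11 for JAZ6 (both negative without replicate 4). The cause was not tested. Depth is unknown, so the precision of low values such as those of EXPA4, SPS1 and FAMA cannot be given.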
